A study of Mus musculus with 8 samples.

Results

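The complement and lectin pathway genes are 32 of the 16337 genes measured by RNA sequencing in primary mouse hepatocytes, the metabolic cells of the liver. They were picked by name, as components, inhibitors and receptors of complement, by a rule that uses no measured value. By symbol 31 were found among the deposited rows, and 1, the protease C1s, through its RefSeq synonym C1s1. By textbook knowledge of where each is made, 8 are products of macrophages or endothelial cells or are receptors (C1qa, C1qb, C1qc, Cfp, Fcna, C3ar1, C5ar1 and Cd93), 20 are made by hepatocytes, and 4 have a mixed or other source (Cfd, Cd55, Cd59a and Colec11).

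The 4 groups were Hamp-/- mice given carbon tetrachloride (CCl4), Hamp-/- mice given olive oil, C57BL/6 wild-type mice given CCl4 and C57BL/6 wild-type mice given olive oil, with 2 libraries each. They are called knockout CCl4, knockout oil, wild-type CCl4 and wild-type oil. The animals were males aged 4 weeks. CCl4 was given as a 12.5% mixture in the same oil, and both treatments lasted 24 h. Hamp encodes hepcidin, a hormone made by hepatocytes that holds back iron export to the blood. CCl4 is a solvent that hepatocytes convert into a radical that injures them. The stated design had 6 mice per group, but no label ties a library to an animal. A p-value here therefore reflects the spread between the 2 libraries of a group, pooled over the 4 groups, and this spread may be technical. The knockout pairs, which differed more, thus also entered the p-values of comparisons within wild type. The labels name no sort of the cells after collagenase digestion, and they do not say whether the knockout and wild-type mice were littermates.

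Complement is a cascade of plasma proteins, most of them secreted by hepatocytes, that marks microbes and damaged cells for removal. The classical pathway starts when C1q binds a surface and switches on the proteases C1r and C1s, and the lectin pathway starts when mannose-binding lectins, ficolins or collectins bind sugars and switch on the MASP proteases. Both cut C4 and C2, whose fragments form an enzyme that cuts C3. The alternative pathway, with factor B, factor D and properdin, amplifies the cutting of C3. Downstream, C5 to C9 assemble the membrane attack complex, inhibitors in plasma and on cell membranes hold these steps in check, and cells sense the released fragments through receptors.

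Of the 32 members, 23 had a promoter in the RefSeq table of GRCm38.p6, a different build from that of the deposited values. Shown are the 250 bases before the start of 5 members on which the results turn. They are 2 macrophage genes that were higher in knockout libraries (Fcna and C1qc), 2 genes that fell after CCl4 in knockout hepatocytes (C1s1 and Cd59a), and C3, the member with the highest level. Each is written 5′ to 3′ on the strand of the gene. Capitals mark a match to the motif of the macrophage factor PU.1 in Fcna and C1qc and to that of the hepatocyte factor C/EBP in C1s1 and C3, and the Cd59a window holds no match.
Fcna promoter, chr2:25627975-25628224, minus strand: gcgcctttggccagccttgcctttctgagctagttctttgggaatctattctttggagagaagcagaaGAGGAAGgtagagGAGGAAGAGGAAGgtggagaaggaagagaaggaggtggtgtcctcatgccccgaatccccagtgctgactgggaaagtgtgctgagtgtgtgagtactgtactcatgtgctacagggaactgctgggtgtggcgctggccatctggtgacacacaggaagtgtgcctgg
C1qc promoter, chr4:136892915-136893164, minus strand: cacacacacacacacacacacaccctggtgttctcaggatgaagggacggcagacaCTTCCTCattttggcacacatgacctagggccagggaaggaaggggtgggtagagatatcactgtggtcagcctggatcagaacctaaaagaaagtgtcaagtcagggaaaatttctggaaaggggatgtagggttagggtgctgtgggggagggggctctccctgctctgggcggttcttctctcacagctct
C1s1 promoter, chr6:124542360-124542609, minus strand: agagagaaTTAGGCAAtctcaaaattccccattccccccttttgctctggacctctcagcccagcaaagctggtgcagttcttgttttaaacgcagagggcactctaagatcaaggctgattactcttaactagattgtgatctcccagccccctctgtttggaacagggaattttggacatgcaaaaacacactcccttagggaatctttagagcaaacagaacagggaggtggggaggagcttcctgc
Cd59a promoter, chr2:104095551-104095800, plus strand: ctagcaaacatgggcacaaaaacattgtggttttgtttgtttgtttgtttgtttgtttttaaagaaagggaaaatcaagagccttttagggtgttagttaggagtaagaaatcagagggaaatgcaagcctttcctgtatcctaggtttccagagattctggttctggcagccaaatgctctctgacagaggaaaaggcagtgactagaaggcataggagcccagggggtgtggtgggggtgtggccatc
C3 promoter, chr17:57228137-57228386, minus strand: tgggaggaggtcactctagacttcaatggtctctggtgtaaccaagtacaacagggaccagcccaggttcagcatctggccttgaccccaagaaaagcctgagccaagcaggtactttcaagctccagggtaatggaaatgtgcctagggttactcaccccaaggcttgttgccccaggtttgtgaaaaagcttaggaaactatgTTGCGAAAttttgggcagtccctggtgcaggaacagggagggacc
Each motif was sought on both strands of the 250 bases in the 23 member promoters and in all 32851 promoters of the table. The PU.1 letters GAGGAAG were in 2 of the 23 member promoters (Fcna and C1qc) and in 10.6% of all promoters. The windows of C1qb and Cfp, which were also higher in knockout libraries, held no PU.1 match. Fcna held 3 matches, 182, 169 and 163 bases before the start, and C1qc held 1 on the other strand, 194 bases before it. The C/EBP letters TTGCNNAA were in 3 of the 23 member promoters (C1s1, C9 and C3) and in 9.56% of all. The HNF1 motif was in C4bp and Hc and in 0.371% of all, and the NF-kappaB motif was in C3ar1 and in 1.41% of all. STAT (TTCCNGGAA, in 0.913% of all) and HNF4 (CAAAGTCC, in 1.2% of all) had no match in a member promoter. These matches describe letters and no binding was measured.

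Hamp had 0.98 and 0.83 FPKM (fragments per kilobase of transcript, relative to all mapped fragments of a library) in knockout CCl4 and 2.72 and 0.54 FPKM in knockout oil libraries, against 1273 and 1136 FPKM in wild-type CCl4 and 1805 and 1826 FPKM in wild-type oil libraries. Hamp was thus near 0 in every knockout library. The SD of the log2 difference between the 2 libraries of a group, over tested genes, was 0.394 in knockout CCl4 and 0.364 in knockout oil, against 0.139 in each wild-type group. The 10 hepatocyte markers held 14.1% to 16.5% of summed FPKM in knockout libraries and 11.2% to 13.0% in wild-type libraries. The 9 stellate cell markers summed to between 2.84 and 15.0 FPKM, the 5 bile duct cell markers to between 6.15 and 43.0 FPKM, and 6 lymphocyte markers to at most 2.79 FPKM. Between 8867 and 9384 genes reached 1 FPKM in a library, and the number of reads behind each value is unknown.

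Levels spanned a wide range, with liver-made members at the top. By mean FPKM over the 8 libraries C3 ranked at place 26 of all genes, followed by the chaperone clusterin (Clu, place 64), factor B (Cfb, place 81), the C1 inhibitor (Serping1, place 116), factor I (Cfi, place 161) and C4b (place 179). The 20 liver-made members made up 1.46% to 1.54% of summed FPKM in the knockout libraries, against 1.90% and 1.94% in wild-type CCl4 and 1.69% and 1.71% in wild-type oil. The 8 macrophage, endothelial and receptor members made up 0.0363% and 0.0434% in knockout CCl4, 0.0295% and 0.0375% in knockout oil, 0.00824% and 0.00882% in wild-type CCl4, and 0.00274% and 0.00325% in wild-type oil. The liver-made share was thus below wild type in knockout libraries, and the share of the other class was above it, with no overlap. The liver-made sum rests most on C3, with means of 2396 FPKM in knockout oil and 3637 FPKM in wild-type oil. It therefore does not describe each liver-made member. Factor D (Cfd), a serine protease known from fat tissue, stayed at or below 0.11 FPKM, and the collectin Colec11 at or below 1.27 FPKM, and neither passed the filter of at least 1 FPKM in at least 2 libraries.

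The 30 members that passed were read from a limma fit over all 10082 tested genes, and a value is said to have risen, fallen or been called where its adjusted p was under 0.05. After CCl4, 7 of the 30 members were higher and 11 were lower than in oil in knockout hepatocytes, where 27.9% and 27.4% of all tested genes were called higher and lower. In wild-type hepatocytes 9 were higher and 2 lower after CCl4, where 10.2% and 5.61% of all genes were. After CCl4, 10 members were higher and 14 lower in knockout than in wild type, where 29.6% and 27.5% of all genes were, and 11 were higher and 6 lower in oil, where 22.4% and 11% were. The response to CCl4 was more positive in knockout than in wild type for 3 members and more negative for 7, where 14.3% and 19% of all genes were called in the test of the interaction.

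C3ar1, C5ar1, Cd93 and Cd55 passed the filter through some groups only, so they had to be higher there, and the counts are read over the 26 members at 1 FPKM or more in every library. Of these 26, CCl4 raised 15.4% and lowered 42.3% in knockout hepatocytes, and raised 23.1% and lowered 7.69% in wild-type hepatocytes. Set against the shares over all tested genes, the lower share in knockout and the higher share in wild type stood above the background. That background also holds genes that reached 1 FPKM in as few as 2 libraries, and no share was taken under the filter of the 26. Of the 6 members higher in wild type, 5 were the macrophage members C1qa, C1qb, C1qc, Cfp and Fcna. In the knockout against wild type comparison 23.1% were higher and 53.8% lower after CCl4, and 30.8% were higher and 23.1% lower in oil. Their median log2 change was -0.25 for CCl4 in knockout and 0.01 in wild type, and -0.21 after CCl4 and -0.03 in oil for knockout against wild type, beside -0.03, 0.04, -0.02 and 0.05 over all tested genes. Quantile normalization changed the split in wild type to 8 higher and 6 lower of the 30, and that of knockout against wild type in oil to 10 higher and 9 lower.

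These counts rest on single libraries in several places. Here and below, a result given without any, or without either, library of a kind applies to each fit that left out 1 of them. In wild type the higher count was 5, 4 and 4 without wild-type CCl4 replicate 1, wild-type CCl4 replicate 2 and wild-type oil replicate 1, and the lower count was 4 without either knockout CCl4 library and 1 without any wild-type library. For CCl4 in knockout the higher count was 4 without knockout oil replicate 1. The lower count of knockout against wild type was 2 without either wild-type oil library in oil, and 8 and 9 without wild-type CCl4 replicates 1 and 2 after CCl4. In the interaction the higher count was 1, 0 and 1 without wild-type CCl4 replicate 2, wild-type oil replicate 1 and wild-type oil replicate 2, and the lower count was 4 without knockout oil replicate 2 and 3 without each of those wild-type libraries. Without replicate 2 of both knockout groups, the libraries that stood apart for Hc and C9, the counts were 14 higher and 10 lower for CCl4 in wild type, 10 lower for knockout in oil and 15 lower for the interaction.

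The source classes parted in direction. After CCl4 in knockout hepatocytes 3 of the 20 liver-made members rose and 10 fell (15% and 50%, beside 27.9% and 27.4% of all genes). In wild type 1 rose and 2 fell (5% and 10%, beside 10.2% and 5.61%). In knockout, 1 liver-made member was higher and 13 were lower than in wild type after CCl4 (5% and 65%, beside 29.6% and 27.5%), and 3 were higher and 6 lower in oil (15% and 30%, beside 22.4% and 11%). Of the 10 hepatocyte markers, 2 rose and 6 fell with CCl4 in knockout, and 1 rose and 1 fell in wild type. The 2 that rose in knockout were Hpx and Ahsg, with log2 changes of 1.59 and 0.85. Among the 6 that fell were Tat (-1.36) and Ass1 (-1.18), enzymes of amino acid breakdown and the urea cycle. In knockout 3 of the 10 hepatocyte markers were higher and 2 lower than in wild type after CCl4, and 5 were higher and 1 lower in oil. The part of this movement in the liver-made results was not tested. Of the 5 macrophage members above 1 FPKM in every library (C1qa, C1qb, C1qc, Cfp and Fcna), 5 were higher in knockout than in wild type in each condition, 5 rose after CCl4 in wild type and 1 (C1qb) rose in knockout.

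**Figure D1:**
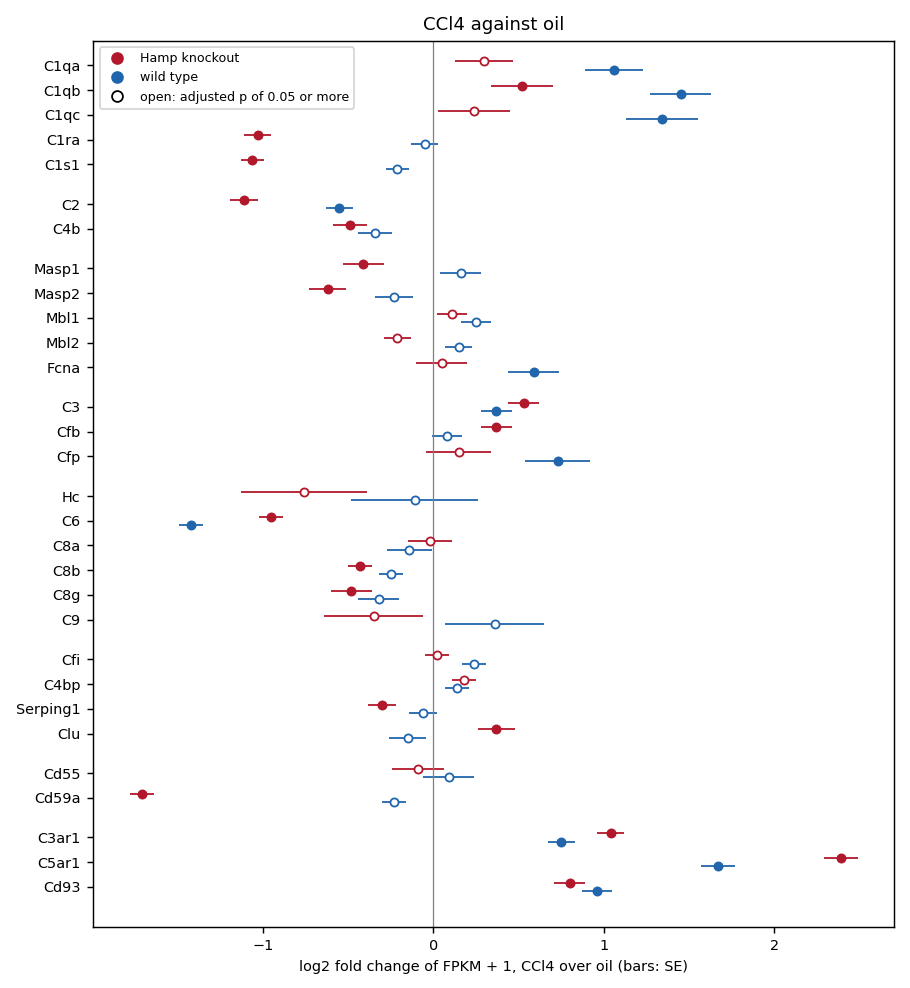
Log2 fold change of FPKM + 1, CCl4 over oil (x axis), for the 30 tested members (y axis, grouped by role), in Hamp knockout (red) and wild type (blue). Points are limma estimates, bars are SE, and open points have an adjusted p of 0.05 or more. C1ra, C1s1, C2 and Cd59a lie at -1.03 to -1.71 in knockout, and C5ar1 lies farthest to the right at 2.39 in knockout and 1.67 in wild type.

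C1q, the recognition unit of the classical pathway, was several times higher in knockout than in wild-type libraries. Its chains are encoded by C1qa, C1qb and C1qc, which lie side by side on chromosome 4 and are transcribed mainly in macrophages. C1qa had 52.9 and 68.6 FPKM in knockout CCl4 and 42.3 and 55.9 FPKM in knockout oil libraries, against 12 and 12.3 FPKM in wild-type CCl4 and 4.88 and 5.79 FPKM in wild-type oil libraries. C1qb had 60.5 and 77.8 FPKM in knockout CCl4 and 40.7 and 55.2 FPKM in knockout oil libraries, against 13.4 and 12.1 FPKM in wild-type CCl4 and 3.69 and 4.40 FPKM in wild-type oil libraries. C1qc had 55.2 and 66.6 FPKM in knockout CCl4 and 43.8 and 60.0 FPKM in knockout oil libraries, against 10.4 and 14.1 FPKM in wild-type CCl4 and 3.63 and 4.77 FPKM in wild-type oil libraries. For each chain every knockout library stood above every wild-type library, and within wild type both CCl4 libraries stood above both oil libraries, while the knockout CCl4 and oil libraries overlapped for C1qa and C1qc. Knockout against wild type in oil, the log2 difference was 2.97 ± 0.17 (limma adjusted p = 7.33e-05) for C1qa, 3.27 ± 0.18 (limma adjusted p = 5.85e-05) for C1qb and 3.34 ± 0.21 (limma adjusted p = 0.000108) for C1qc. After CCl4 it was 2.22 ± 0.17 (limma adjusted p = 9.21e-05) for C1qa, 2.34 ± 0.18 (limma adjusted p = 8.91e-05) for C1qb and 2.24 ± 0.21 (limma adjusted p = 0.00022) for C1qc. Here and below ± gives the SE.

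In wild type CCl4 raised all 3 chains, with log2 changes of 1.06 ± 0.17 (limma adjusted p = 0.00838) for C1qa, 1.45 ± 0.18 (limma adjusted p = 0.0028) for C1qb and 1.34 ± 0.21 (limma adjusted p = 0.00752) for C1qc. In knockout the changes were 0.30 ± 0.17 (limma adjusted p = 0.181) for C1qa, 0.52 ± 0.18 (limma adjusted p = 0.0446) for C1qb and 0.24 ± 0.21 (limma adjusted p = 0.384) for C1qc, so C1qb passed the threshold. The interaction was -0.92 ± 0.25 (limma adjusted p = 0.0326) for C1qb and -1.10 ± 0.30 (limma adjusted p = 0.0315) for C1qc, against -0.75 ± 0.24 (limma adjusted p = 0.0547) for C1qa, which did not pass. Several of these calls ended in other fits. In wild type the C1qa call ended without either wild-type CCl4 library or wild-type oil replicate 1 (limma adjusted p from 0.0611 to 0.0781). The C1qc call there ended without wild-type CCl4 replicate 2 or wild-type oil replicate 1 (limma adjusted p from 0.0628 to 0.0691). The C1qb call in knockout ended without knockout CCl4 replicate 2, knockout oil replicate 1 or any wild-type library (limma adjusted p from 0.0678 to 0.201), with a log2 change of 0.34 without knockout CCl4 replicate 2 and 0.31 without knockout oil replicate 1. It also ended with a pseudocount of 0.1, with no filter, with the 4 libraries compared alone or with libraries weighted by genotype (limma adjusted p from 0.0518 to 0.14). The interaction call of C1qb ended without knockout CCl4 replicate 1, knockout oil replicate 2 or any wild-type library (limma adjusted p from 0.0597 to 0.115), and with no filter (limma adjusted p = 0.0573). That of C1qc ended without knockout CCl4 replicate 1, knockout oil replicate 2, wild-type CCl4 replicate 2 or either wild-type oil library (limma adjusted p from 0.0549 to 0.111), and with no filter or with libraries weighted by genotype (limma adjusted p from 0.0571 to 0.0966).

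Properdin and ficolin A followed the C1q chains. Cfp, which encodes properdin, the stabilizer of the alternative pathway enzyme, had 20.6 and 27.9 FPKM in knockout CCl4 and 18.8 and 24.8 FPKM in knockout oil libraries, against 5.40 and 5.33 FPKM in wild-type CCl4 and 2.47 and 3.24 FPKM in wild-type oil libraries. Fcna, which encodes ficolin A, a lectin of liver macrophages in mice, had 16.6 and 18.5 FPKM in knockout CCl4 and 14.9 and 19.2 FPKM in knockout oil libraries, against 3.22 and 2.59 FPKM in wild-type CCl4 and 1.67 and 1.5 FPKM in wild-type oil libraries. Both were higher in every knockout library than in any wild-type library. The log2 difference of knockout against wild type was 1.97 ± 0.19 (limma adjusted p = 0.000224) after CCl4 and 2.56 ± 0.19 (limma adjusted p = 0.000204) in oil for Cfp. For Fcna it was 2.25 ± 0.15 (limma adjusted p = 4.32e-05) after CCl4 and 2.79 ± 0.15 (limma adjusted p = 4.71e-05) in oil. After CCl4 in wild type Cfp rose by 0.73 ± 0.19 (limma adjusted p = 0.0447), and Fcna by 0.59 ± 0.15 (limma adjusted p = 0.038), on the log2 scale. Both calls ended without any wild-type library, with limma adjusted p from 0.105 to 0.252 for Cfp and limma adjusted p from 0.0925 to 0.215 for Fcna. They also ended with no filter (limma adjusted p = 0.0716) for Cfp and with no filter or under quantile normalization (limma adjusted p from 0.0558 to 0.0599) for Fcna. In knockout the changes were 0.15 ± 0.19 (limma adjusted p = 0.545) for Cfp and 0.05 ± 0.15 (limma adjusted p = 0.798) for Fcna.

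**Figure D2:**
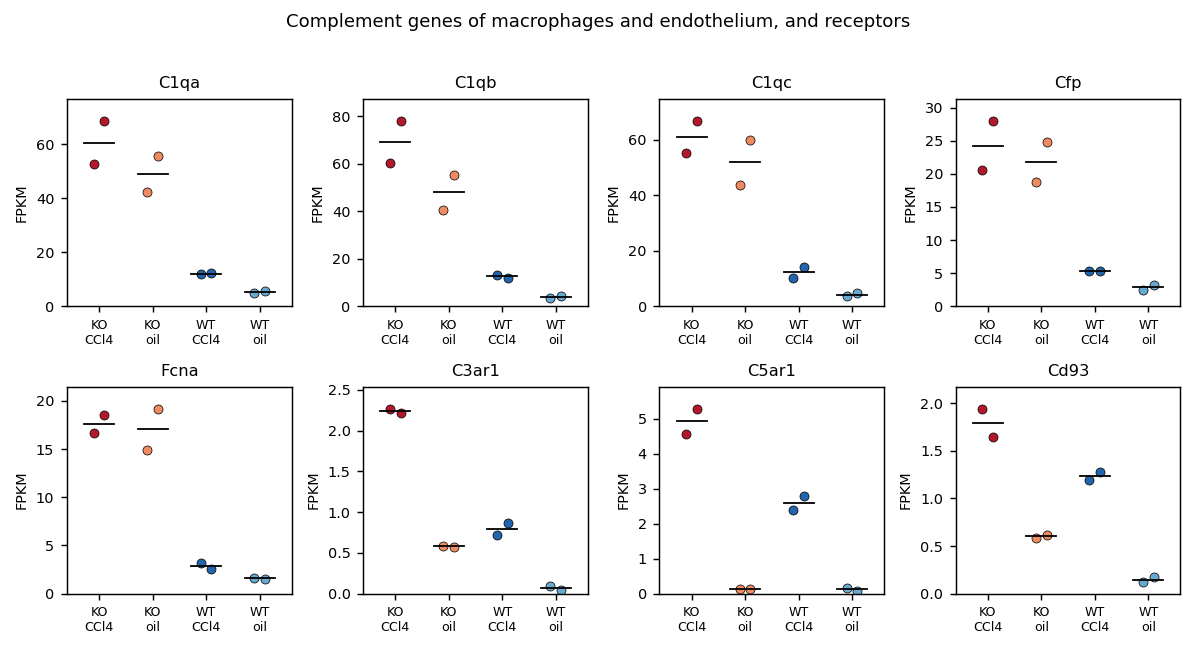
FPKM (y axes from 0) of the 8 members of macrophage or endothelial source and receptors in the 4 groups (x axes: knockout CCl4, knockout oil, wild-type CCl4, wild-type oil). Points are the 2 libraries and lines are group means. C1qa, C1qb, C1qc, Cfp and Fcna separate by genotype, while C5ar1 separates by treatment, with at most 0.16 FPKM in oil libraries.

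Most markers of liver macrophages were higher in knockout than in wild type, as these members were. The summed FPKM of 12 macrophage markers, none of them members and none listed at 0, was 459.8 and 546 in knockout CCl4 and 210.5 and 269 in knockout oil, against 189 and 200.3 in wild-type CCl4 and 27.3 and 30.5 in wild-type oil. In knockout 11 of the 12 were above wild type after CCl4, and 12 of 12 in oil. After CCl4, 5 rose and 3 fell in knockout, and 9 rose and 0 fell in wild type. Of the 5 macrophage members at 1 FPKM or more in every library, 1 rose and 0 fell with CCl4 in knockout. Clec4f, the lectin that marks resident liver macrophages, had 20.9 and 26.2 FPKM in knockout CCl4 and 37.1 and 48.7 FPKM in knockout oil libraries, against 4.40 and 3.49 FPKM in wild-type CCl4 and 3.13 and 3.87 FPKM in wild-type oil libraries. Marco, a scavenger receptor of macrophages, had 63.0 and 75.9 FPKM in knockout CCl4 and 7.74 and 11.5 FPKM in knockout oil libraries, against 7.34 and 7.53 FPKM in wild-type CCl4 and 0.7 and 1.07 FPKM in wild-type oil libraries. The markers thus did not move as 1 block after CCl4: in knockout Clec4f fell by 0.83 on the log2 scale (limma adjusted p = 0.00766) while Marco rose by 2.75 (limma adjusted p = 4.8e-05).

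Summed C1q was set against the summed macrophage markers in each library. C1qa, C1qb and C1qc together had 168.5 and 213 FPKM in knockout CCl4 and 126.8 and 171.1 FPKM in knockout oil, against 35.7 and 38.5 FPKM in wild-type CCl4 and 12.2 and 15.0 FPKM in wild-type oil. Divided by the marker sum this gave 0.366 and 0.390 in knockout CCl4 and 0.603 and 0.636 in knockout oil, against 0.189 and 0.192 in wild-type CCl4 and 0.447 and 0.490 in wild-type oil. The ratio was lower after CCl4 than in oil in both genotypes and higher in knockout than in wild type in both conditions, with no overlap. The size and the direction of these differences depended on the markers chosen. Lyz2, the lysozyme of macrophages and neutrophils, made up 60.3% and 60.4% of the marker sum in wild-type CCl4, against 23.4% and 25% in wild-type oil. Without Lyz2, chosen after its level was seen, the ratio was 0.514 and 0.572 in knockout CCl4 and 0.713 and 0.759 in knockout oil, against 0.476 and 0.485 in wild-type CCl4 and 0.584 and 0.653 in wild-type oil, so the differences were smaller and the groups still did not overlap. Over Clec4f alone the order by treatment turned round, at 8.05 and 8.13 in knockout CCl4 and 3.42 and 3.51 in knockout oil, against 8.12 and 11.02 in wild-type CCl4 and 3.90 and 3.87 in wild-type oil, and the genotypes overlapped after CCl4 while knockout lay below wild type in oil. The part of macrophage content in the C1q, Cfp and Fcna results was not tested. In bulk libraries, fewer cells of a type and less RNA per cell cannot be told apart.

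**Figure D3:**
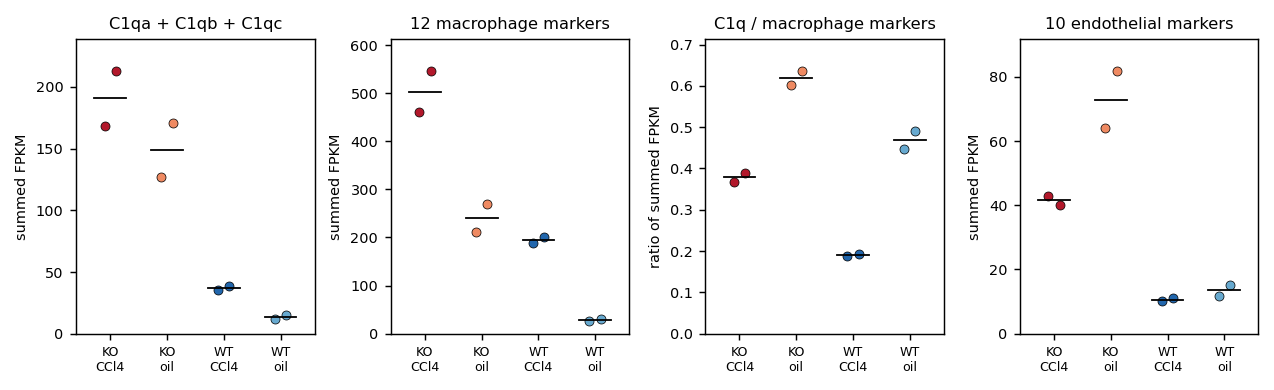
Summed FPKM of C1qa, C1qb and C1qc, summed FPKM of 12 macrophage markers, the ratio of these sums, and summed FPKM of 10 endothelial markers (y axes from 0) in the 4 groups (x axes). Points are the 2 libraries and lines are group means. The ratio is lowest in wild-type CCl4 (0.189 and 0.192) and highest in knockout oil (0.603 and 0.636).

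The C1 proteases fell after CCl4 in knockout hepatocytes. C1ra and C1s1 encode the proteases C1r and C1s of hepatocytes, and lie side by side on chromosome 6. C1ra had 83.6 and 95.0 FPKM in knockout CCl4 and 177 and 189.6 FPKM in knockout oil libraries, against 139.6 and 138 FPKM in wild-type CCl4 and 145 and 143 FPKM in wild-type oil libraries. C1s1 had 86.1 and 77.2 FPKM in knockout CCl4 and 174 and 169.6 FPKM in knockout oil libraries, against 158 and 159 FPKM in wild-type CCl4 and 186 and 181 FPKM in wild-type oil libraries. Both knockout CCl4 libraries stood below all other libraries for each gene. The log2 change with CCl4 in knockout was -1.03 ± 0.08 (limma adjusted p = 8.51e-05) for C1ra and -1.06 ± 0.07 (limma adjusted p = 4.65e-05) for C1s1, which is 0.487 and 0.476 times the oil mean. In wild type it was -0.05 ± 0.08 (limma adjusted p = 0.772) for C1ra and -0.21 ± 0.07 (limma adjusted p = 0.111) for C1s1. The wild-type change of C1s1 was called with the 4 libraries compared alone or with libraries weighted by genotype. The responses differed between the genotypes, with an interaction of -0.98 ± 0.12 (limma adjusted p = 0.0012) for C1ra and -0.85 ± 0.10 (limma adjusted p = 0.00135) for C1s1, and both interaction calls held in all 15 alternative fits. After CCl4 the log2 difference of knockout against wild type was -0.63 ± 0.08 (limma adjusted p = 0.000845) for C1ra and -0.95 ± 0.07 (limma adjusted p = 9.3e-05) for C1s1. In oil C1ra was higher by 0.35 ± 0.08 (limma adjusted p = 0.0189) and C1s1 had -0.10 ± 0.07 (limma adjusted p = 0.362). The C1ra call in oil ended without knockout oil replicate 2 or either wild-type oil library (limma adjusted p from 0.0865 to 0.114). The near copies C1rb and C1s2 had at most 0.11 and 0.06 FPKM in any library.

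C2 and C4b, the substrates cut by C1s and MASP2, also fell after CCl4 in knockout hepatocytes. C2 had 27.9 and 31.98 FPKM in knockout CCl4 and 63.4 and 67.8 FPKM in knockout oil libraries, against 40.5 and 40.3 FPKM in wild-type CCl4 and 59.7 and 59.6 FPKM in wild-type oil libraries. C4b had 267 and 327 FPKM in knockout CCl4 and 409.9 and 419 FPKM in knockout oil libraries, against 394 and 400.0 FPKM in wild-type CCl4 and 505 and 502 FPKM in wild-type oil libraries. For both genes the knockout CCl4 libraries were the lowest of all, and in each genotype the CCl4 libraries stood below the oil libraries. C2 fell by 1.11 on the log2 scale with CCl4 in knockout (limma adjusted p = 7.14e-05) and fell by 0.55 in wild type (limma adjusted p = 0.00657), with an interaction of -0.56 ± 0.12 (limma adjusted p = 0.0135). C4b had a log2 change of -0.49 ± 0.10 (limma adjusted p = 0.00582) in knockout and -0.34 ± 0.10 (limma adjusted p = 0.0638) in wild type, with no call of the interaction (-0.14 ± 0.14, limma adjusted p = 0.481). After CCl4 the difference of knockout against wild type was -0.42 ± 0.08 (limma adjusted p = 0.00559) for C2 and -0.42 ± 0.10 (limma adjusted p = 0.0106) for C4b. The C2 calls ended without any wild-type library, with limma adjusted p from 0.0575 to 0.0658 for CCl4 in wild type and limma adjusted p from 0.0566 to 0.0605 for the interaction. The C4b call after CCl4 ended without either wild-type CCl4 library (limma adjusted p from 0.054 to 0.0641), and that of CCl4 in knockout ended with the 4 libraries compared alone (limma adjusted p = 0.055). The C2 and Cfb genes lie side by side on chromosome 17. The annotation and the counting are not given, so whether reads of the pair were shared is unknown. The near copy C4a had at most 0.88 FPKM.

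**Figure D4:**
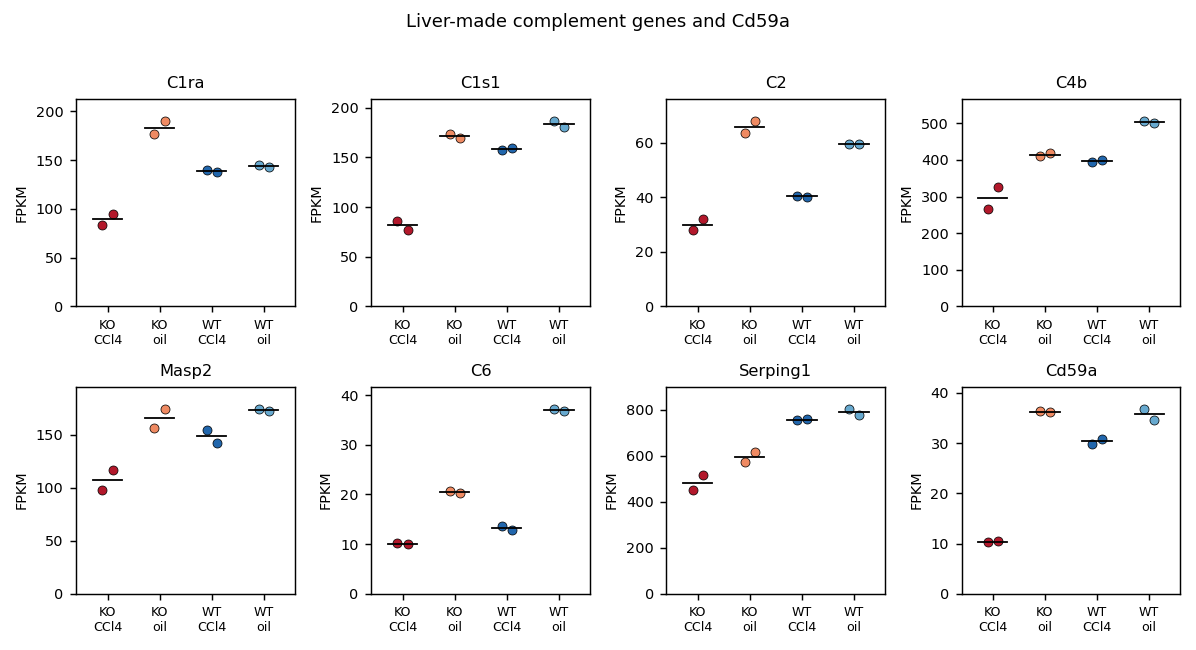
FPKM (y axes from 0) of C1ra, C1s1, C2, C4b, Masp2, C6, Serping1 and Cd59a in the 4 groups (x axes: knockout CCl4, knockout oil, wild-type CCl4, wild-type oil). Points are the 2 libraries and lines are group means. Knockout CCl4 libraries are the lowest for all 8 genes, and C6 is highest in wild-type oil.

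In the lectin pathway the mannose-binding lectins differed between genotypes in opposite directions. Mbl1, which encodes mannose-binding lectin A, had 167 and 184 FPKM in knockout CCl4 and 152 and 172 FPKM in knockout oil libraries, against 247 and 261 FPKM in wild-type CCl4 and 206 and 221 FPKM in wild-type oil libraries. Mbl2, which encodes mannose-binding lectin C, had 369.9 and 393 FPKM in knockout CCl4 and 413 and 469.6 FPKM in knockout oil libraries, against 294 and 287 FPKM in wild-type CCl4 and 258 and 266 FPKM in wild-type oil libraries. Knockout libraries were below wild-type libraries for Mbl1 and above them for Mbl2, with no overlap. The log2 difference of knockout against wild type was -0.54 ± 0.09 (limma adjusted p = 0.00286) after CCl4 and -0.40 ± 0.09 (limma adjusted p = 0.0177) in oil for Mbl1. For Mbl2 it was 0.39 ± 0.08 (limma adjusted p = 0.00671) after CCl4 and 0.75 ± 0.08 (limma adjusted p = 0.000915) in oil. Neither lectin was called with CCl4 in either genotype. The Mbl1 call in oil ended without knockout oil replicate 1 or either wild-type oil library (limma adjusted p from 0.0648 to 0.121), and the Mbl2 call after CCl4 ended without wild-type CCl4 replicate 2 (limma adjusted p = 0.0508).

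Of the lectin proteases, Masp2, which cuts C4 and C2, had 97.5 and 117 FPKM in knockout CCl4 and 156 and 174 FPKM in knockout oil libraries, against 155 and 142 FPKM in wild-type CCl4 and 174 and 173 FPKM in wild-type oil libraries. Its knockout CCl4 libraries were the lowest, and its log2 change with CCl4 was -0.62 ± 0.11 (limma adjusted p = 0.00275) in knockout and -0.23 ± 0.11 (limma adjusted p = 0.22) in wild type. Masp1, which activates MASP2, had 23.0 and 25.5 FPKM in knockout CCl4 and 33.8 and 31.1 FPKM in knockout oil libraries, against 19.1 and 23.2 FPKM in wild-type CCl4 and 19.7 and 17.7 FPKM in wild-type oil libraries. Its knockout oil libraries were the highest. Masp1 had a log2 difference of 0.76 ± 0.12 (limma adjusted p = 0.00347) for knockout against wild type in oil. Its log2 change with CCl4 was -0.41 ± 0.12 (limma adjusted p = 0.0236) in knockout and 0.16 ± 0.12 (limma adjusted p = 0.426) in wild type, with an interaction of -0.57 ± 0.16 (limma adjusted p = 0.0382). The Masp1 call in knockout ended without knockout CCl4 replicate 1 or knockout oil replicate 1 (limma adjusted p from 0.0833 to 0.1), and with the 4 libraries compared alone or with libraries weighted by genotype (limma adjusted p from 0.0554 to 0.232). That of the interaction ended without knockout CCl4 replicate 1, either knockout oil library, wild-type CCl4 replicate 2 or either wild-type oil library (limma adjusted p from 0.0501 to 0.137), and with no filter, under quantile normalization or with libraries weighted by genotype (limma adjusted p from 0.0573 to 0.143). Masp2 was lower in knockout than in wild type after CCl4 (-0.47 ± 0.11, limma adjusted p = 0.00967), a call that ended without wild-type CCl4 replicate 1 (limma adjusted p = 0.0693). Colec11, the collectin CL-11, was too low for the test at 0.93 and 0.33 FPKM in knockout CCl4 and 0.95 and 1.27 FPKM in knockout oil libraries, against 0.04 and 0.15 FPKM in wild-type CCl4 and 0.32 and 0.16 FPKM in wild-type oil libraries.

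C3 and factor B were the liver-made members that rose after CCl4 in knockout, together with clusterin. C3, on which all pathways meet, had 3220.3 and 3716 FPKM in knockout CCl4 and 2387 and 2405 FPKM in knockout oil libraries, against 4599.8 and 4782 FPKM in wild-type CCl4 and 3652 and 3622 FPKM in wild-type oil libraries. Cfb, whose product is the protease of the alternative pathway enzyme, had 874 and 1009.9 FPKM in knockout CCl4 and 689.6 and 763 FPKM in knockout oil libraries, against 901 and 886 FPKM in wild-type CCl4 and 832 and 859.8 FPKM in wild-type oil libraries. For C3 the knockout oil libraries were the lowest and the wild-type CCl4 libraries the highest, while for Cfb the wild-type CCl4 libraries lay between the knockout CCl4 libraries. CCl4 raised C3 by 0.53 ± 0.09 (limma adjusted p = 0.00221) in knockout and by 0.37 ± 0.09 (limma adjusted p = 0.0337) in wild type on the log2 scale, with no call of the interaction (0.16 ± 0.12, limma adjusted p = 0.354). For Cfb the change was 0.37 ± 0.09 (limma adjusted p = 0.0134) in knockout and 0.08 ± 0.09 (limma adjusted p = 0.674) in wild type. C3 was lower in knockout than in wild type both after CCl4 (-0.44 ± 0.09, limma adjusted p = 0.00533) and in oil (-0.60 ± 0.09, limma adjusted p = 0.00284), and no genotype call was made for Cfb. The C3 call in wild type ended without any wild-type library (limma adjusted p from 0.152 to 0.215), and with no filter (limma adjusted p = 0.0877). The Cfb call in knockout ended without knockout oil replicate 1 (limma adjusted p = 0.0625), and with the 4 libraries compared alone (limma adjusted p = 0.0936).

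The terminal pathway members fell or were not called in each of the comparisons of 2 groups. Of the 6, CCl4 lowered 3 in knockout (C6, C8b and C8g) and 1 in wild type (C6), beside 27.4% and 5.61% of all tested genes. Knockout libraries were below wild type for 3 after CCl4 (Hc, C6 and C9) and for 1 in oil (C6), beside 27.5% and 11% of all genes. With 6 members such counts cannot be told from those shares. C6, a subunit of the membrane attack complex, had 10.3 and 9.94 FPKM in knockout CCl4 and 20.6 and 20.3 FPKM in knockout oil libraries, against 13.7 and 12.8 FPKM in wild-type CCl4 and 37.2 and 36.8 FPKM in wild-type oil libraries. Wild-type oil stood above all other groups. C6 fell by 0.95 on the log2 scale with CCl4 in knockout (limma adjusted p = 6.97e-05) and fell by 1.42 in wild type (limma adjusted p = 9.85e-05). It was lower in knockout than in wild type in oil (-0.82 ± 0.07, limma adjusted p = 0.000386) and after CCl4 (-0.36 ± 0.07, limma adjusted p = 0.00573). Its interaction was positive (0.47 ± 0.10, limma adjusted p = 0.0145), a call that ended without wild-type CCl4 replicate 2 or either wild-type oil library (limma adjusted p from 0.0631 to 0.0687). C8b, whose product is a chain of C8, had 156 and 167 FPKM in knockout CCl4 and 209.6 and 225 FPKM in knockout oil libraries, against 167 and 166 FPKM in wild-type CCl4 and 200.2 and 195 FPKM in wild-type oil libraries. Its groups did not overlap by treatment, with a log2 change of -0.43 ± 0.07 (limma adjusted p = 0.00216) in knockout and -0.25 ± 0.07 (limma adjusted p = 0.0577) in wild type. C8g, which encodes the gamma chain of C8, had a change of -0.48 ± 0.12 (limma adjusted p = 0.0141) in knockout, a call that ended without knockout CCl4 replicate 1 or knockout oil replicate 2 (limma adjusted p from 0.053 to 0.0577), and with the 4 libraries compared alone (limma adjusted p = 0.0761). C8a, the neighbour of C8b on chromosome 4, ranged from 240.3 to 336 FPKM and was the 1 tested member called in none of the 5 tests.

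Hc and C9 stood apart because the knockout replicates disagreed. Hc, the mouse gene for C5, had 119 and 69.0 FPKM in knockout CCl4 and 223 and 107 FPKM in knockout oil libraries, against 239 and 255 FPKM in wild-type CCl4 and 274 and 259.7 FPKM in wild-type oil libraries. C9, the pore-forming subunit, had 297 and 154 FPKM in knockout CCl4 and 317 and 234 FPKM in knockout oil libraries, against 412 and 425 FPKM in wild-type CCl4 and 330.1 and 319.9 FPKM in wild-type oil libraries. In both knockout groups replicate 1 was above replicate 2 for each gene, by up to 2.1 times for Hc in oil and 1.93 times for C9 after CCl4, while the wild-type pairs were close. Knockout against wild type after CCl4, the log2 difference was -1.44 ± 0.37 (limma adjusted p = 0.0151) for Hc and -0.97 ± 0.29 (limma adjusted p = 0.0281) for C9. The Hc call ended without knockout CCl4 replicate 2 or either wild-type CCl4 library (limma adjusted p from 0.0624 to 0.0752). The C9 call ended with no filter or with the 4 libraries compared alone (limma adjusted p from 0.0506 to 0.0519). It also ended without knockout CCl4 replicate 2 or any wild-type library (limma adjusted p from 0.0527 to 0.112), with a log2 difference of -0.50 for C9 without knockout CCl4 replicate 2. What divides the knockout replicates was not tested.

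Among the soluble inhibitors, Serping1 was lower in knockout. Serping1, which encodes the C1 inhibitor of C1r, C1s and the MASPs, had 451 and 515 FPKM in knockout CCl4 and 575 and 615 FPKM in knockout oil libraries, against 757 and 759 FPKM in wild-type CCl4 and 805 and 777 FPKM in wild-type oil libraries. Every knockout library was below every wild-type library. The log2 difference of knockout against wild type was -0.65 ± 0.08 (limma adjusted p = 0.000843) after CCl4 and -0.41 ± 0.08 (limma adjusted p = 0.011) in oil. The change with CCl4 was -0.30 ± 0.08 (limma adjusted p = 0.0215) in knockout and -0.06 ± 0.08 (limma adjusted p = 0.732) in wild type. The call in oil ended without either wild-type oil library (limma adjusted p from 0.0627 to 0.0885), and that of CCl4 in knockout without knockout CCl4 replicate 1 or knockout oil replicate 2 (limma adjusted p from 0.069 to 0.084), and with the 4 libraries compared alone or with libraries weighted by genotype (limma adjusted p from 0.0687 to 0.125). C4bp, the C4-binding protein, ranged from 298 to 400.3 FPKM. Its log2 difference for knockout against wild type was -0.22 ± 0.07 (limma adjusted p = 0.0289) after CCl4 and -0.26 ± 0.07 (limma adjusted p = 0.0259) in oil. The calls ended without knockout CCl4 replicate 2 or any wild-type library (limma adjusted p from 0.0681 to 0.127) after CCl4 and without either knockout oil library or any wild-type library (limma adjusted p from 0.0562 to 0.152) in oil. They also ended with the 4 libraries compared alone (limma adjusted p = 0.104) after CCl4 and with the 4 libraries compared alone (limma adjusted p = 0.0508) in oil. Cfi, the protease that inactivates C3b and C4b, ranged from 408 to 489 FPKM. Its 1 call, -0.20 ± 0.07 (limma adjusted p = 0.0436) for knockout against wild type after CCl4, ended without knockout CCl4 replicate 2, either knockout oil library or any wild-type library (limma adjusted p from 0.0538 to 0.17). It also ended with no filter, with the 4 libraries compared alone or with libraries weighted by genotype (limma adjusted p from 0.0512 to 0.14).

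Clusterin, which keeps the membrane attack complex out of cell membranes, had 1140.5 and 1368 FPKM in knockout CCl4 and 899.9 and 1035 FPKM in knockout oil libraries, against 1232 and 1131 FPKM in wild-type CCl4 and 1295 and 1323 FPKM in wild-type oil libraries. Its knockout oil libraries stood below all others. The log2 change of Clu with CCl4 was 0.37 ± 0.11 (limma adjusted p = 0.0305) in knockout and -0.15 ± 0.11 (limma adjusted p = 0.47) in wild type. The interaction was 0.52 ± 0.16 (limma adjusted p = 0.0486), and the difference of knockout against wild type in oil was -0.44 ± 0.11 (limma adjusted p = 0.027). The call of CCl4 in knockout ended without knockout CCl4 replicate 2, knockout oil replicate 1 or any wild-type library (limma adjusted p from 0.0545 to 0.132), with a log2 change of 0.24 without knockout CCl4 replicate 2. It also ended with no filter, with the 4 libraries compared alone or with libraries weighted by genotype (limma adjusted p from 0.0557 to 0.125). That of the interaction ended without knockout CCl4 replicate 2, knockout oil replicate 1 or any wild-type library (limma adjusted p from 0.0901 to 0.165), and with a pseudocount of 0.1 or with no filter (limma adjusted p from 0.0509 to 0.0864). That in oil ended without knockout oil replicate 1 or any wild-type library (limma adjusted p from 0.054 to 0.136).

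The membrane inhibitor Cd59a had the largest fall of the members after CCl4 in knockout hepatocytes. Cd59a encodes CD59, which blocks the assembly of the membrane attack complex on the cell that carries it. Its libraries had 10.2 and 10.6 FPKM in knockout CCl4 and 36.3 and 36.3 FPKM in knockout oil libraries, against 29.9 and 30.8 FPKM in wild-type CCl4 and 36.9 and 34.6 FPKM in wild-type oil libraries. The knockout CCl4 libraries lay well below the other 6, which spanned 29.9 to 36.9 FPKM. The log2 change with CCl4 was -1.71 ± 0.07 (limma adjusted p = 5.14e-06) in knockout, or 0.286 times the oil mean, and -0.23 ± 0.07 (limma adjusted p = 0.0775) in wild type. Knockout against wild type it was -1.46 ± 0.07 (limma adjusted p = 1.27e-05) after CCl4 and 0.02 ± 0.07 (limma adjusted p = 0.832) in oil, and the interaction was -1.48 ± 0.10 (limma adjusted p = 0.000121). The called values held in every alternative fit. The wild-type change with CCl4 was called with the 4 libraries compared alone, with libraries weighted by genotype or under quantile normalization. The near copy Cd59b, its neighbour on chromosome 2, had at most 1.68 FPKM.

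Cd55, which encodes the decay-accelerating factor that takes apart the C3-cutting enzymes, was low throughout, at 1.62 and 1.17 FPKM in knockout CCl4 and 1.86 and 1.25 FPKM in knockout oil libraries, against 0.59 and 0.48 FPKM in wild-type CCl4 and 0.42 and 0.46 FPKM in wild-type oil libraries. Knockout libraries stood above wild-type libraries. It passed the filter only through the knockout groups, so the log2 differences of 0.64 ± 0.15 (limma adjusted p = 0.00964) after CCl4 and 0.82 ± 0.15 (limma adjusted p = 0.00642) in oil for knockout against wild type had to be positive. The calls ended without wild-type CCl4 replicate 2 (limma adjusted p = 0.063) after CCl4 and without wild-type oil replicate 1 (limma adjusted p = 0.0512) in oil.

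The receptors rose after CCl4 in both genotypes. C5ar1, the receptor of the fragment C5a on neutrophils and macrophages, had 4.57 and 5.28 FPKM in knockout CCl4 and 0.13 and 0.12 FPKM in knockout oil libraries, against 2.39 and 2.78 FPKM in wild-type CCl4 and 0.16 and 0.09 FPKM in wild-type oil libraries. C3ar1, the receptor of C3a, had 2.27 and 2.22 FPKM in knockout CCl4 and 0.59 and 0.57 FPKM in knockout oil libraries, against 0.72 and 0.87 FPKM in wild-type CCl4 and 0.09 and 0.05 FPKM in wild-type oil libraries. Cd93, a receptor of endothelial and myeloid cells that was first described as a receptor for C1q, had 1.94 and 1.64 FPKM in knockout CCl4 and 0.58 and 0.62 FPKM in knockout oil libraries, against 1.19 and 1.28 FPKM in wild-type CCl4 and 0.12 and 0.17 FPKM in wild-type oil libraries. For each receptor the CCl4 libraries stood above the oil libraries of the same genotype, and the knockout CCl4 libraries were the highest. The log2 change of C5ar1 with CCl4 was 2.39 ± 0.10 (limma adjusted p = 6.22e-06) in knockout and 1.67 ± 0.10 (limma adjusted p = 0.000183) in wild type, with an interaction of 0.72 ± 0.15 (limma adjusted p = 0.0106). For C3ar1 it was 1.04 ± 0.08 (limma adjusted p = 8.85e-05) in knockout and 0.75 ± 0.08 (limma adjusted p = 0.00186) in wild type. For Cd93 it was 0.80 ± 0.09 (limma adjusted p = 0.000397) in knockout and 0.96 ± 0.09 (limma adjusted p = 0.00085) in wild type. After CCl4 the difference of knockout against wild type was 0.72 ± 0.10 (limma adjusted p = 0.00129) for C5ar1, 0.86 ± 0.08 (limma adjusted p = 0.000244) for C3ar1 and 0.32 ± 0.09 (limma adjusted p = 0.022) for Cd93.

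In oil C5ar1 did not differ by the test (0.00 ± 0.10, limma adjusted p = 0.997), and C3ar1 (0.56 ± 0.08, limma adjusted p = 0.00309) and Cd93 (0.48 ± 0.09, limma adjusted p = 0.00753) were higher in knockout. C3ar1 passed the filter only through knockout CCl4, and C5ar1 and Cd93 only through the CCl4 groups, so a rise with CCl4 was built into their entry. For C3ar1 the place of the knockout CCl4 libraries above wild-type CCl4 was built in as well. At these levels the log2 scale with 1 FPKM added understates the change: the ratio of group means of C5ar1 was 39.4 in knockout and 20.7 in wild type. The C5ar1 interaction call ended without wild-type oil replicate 1 (limma adjusted p = 0.0528), and with a pseudocount of 0.1 (limma adjusted p = 0.0689). The Cd93 call after CCl4 ended without knockout CCl4 replicate 1 or either wild-type CCl4 library (limma adjusted p from 0.0724 to 0.112), and with a pseudocount of 0.1, with the 4 libraries compared alone or with libraries weighted by genotype (limma adjusted p from 0.0585 to 0.0717). That in oil ended without wild-type oil replicate 1 (limma adjusted p = 0.0655), and under quantile normalization (limma adjusted p = 0.147), where the log2 difference was 0.25.

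Most markers of neutrophils and monocytes rose with CCl4 as the receptors did, while most of those of endothelium did not. The summed FPKM of 10 neutrophil and monocyte markers was 97 and 116.7 in knockout CCl4 and 19.1 and 24.0 in knockout oil, against 98.7 and 100.2 in wild-type CCl4 and 16.4 and 15.6 in wild-type oil, and 8 of the 10 rose with CCl4 in each genotype. The neutrophil marker Ly6g went the other way, with a log2 change of -1.22 (limma adjusted p = 0.000749) in knockout and -0.34 (limma adjusted p = 0.211) in wild type. The sum of 10 endothelial markers was 43.0 and 40.1 in knockout CCl4 and 64.1 and 81.9 in knockout oil, against 10.3 and 10.98 in wild-type CCl4 and 11.8 and 15.1 in wild-type oil. All 10 were higher in knockout in both conditions. With CCl4, 0 rose and 6 fell in knockout, and 1 rose and 2 fell in wild type. Among them, Kdr, a receptor of the vascular growth factor, had a log2 change of -1.42 (limma adjusted p = 3.91e-05) in knockout, and Clec4g, a lectin of liver sinusoids, had -1.38 (limma adjusted p = 0.00112). None of these markers was listed at 0 in any library, and the part of these cells in the receptor levels was not tested.

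**Figure D5:**
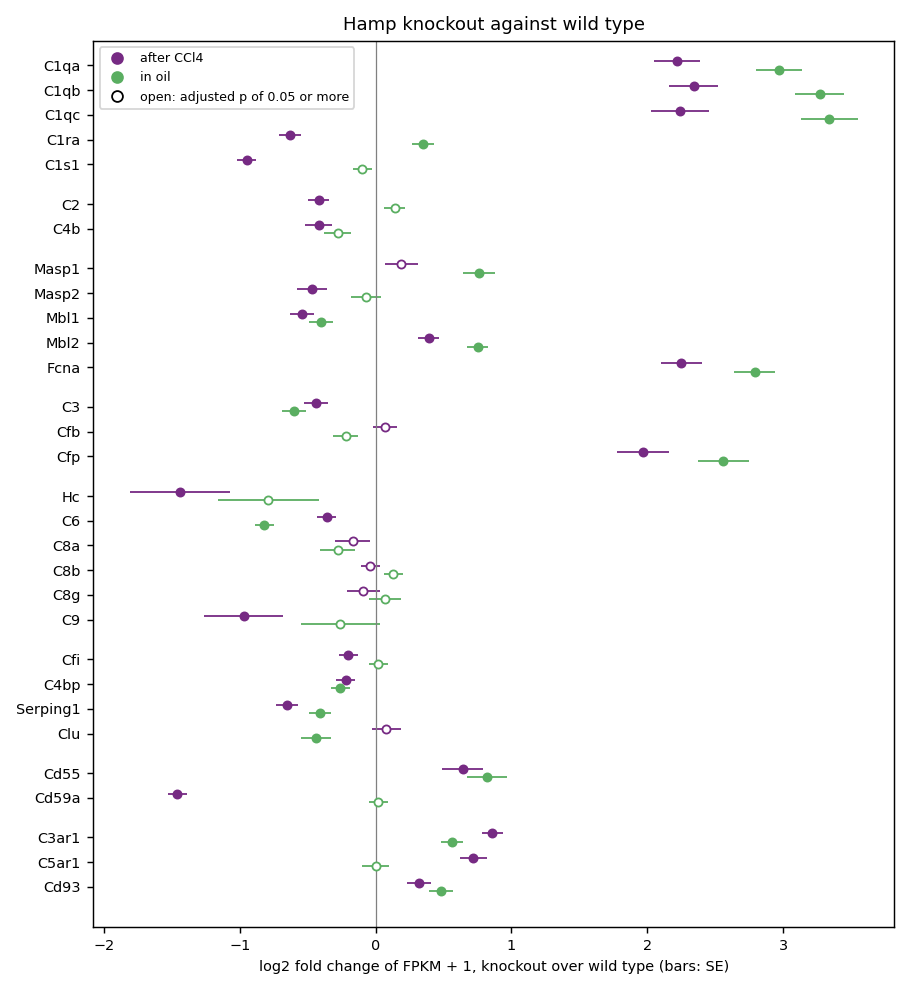
Log2 fold change of FPKM + 1, Hamp knockout over wild type (x axis), for the 30 tested members (y axis, grouped by role), after CCl4 (purple) and in oil (green). Points are limma estimates, bars are SE, and open points have an adjusted p of 0.05 or more. C1qa, C1qb, C1qc, Cfp and Fcna lie between 1.97 and 3.34 in both conditions, and Cd59a lies at -1.46 after CCl4 and 0.02 in oil.

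Of the 26 members at 1 FPKM or more in every library, 2 were higher after CCl4 in both genotypes (C1qb and C3) and 2 were lower in both (C2 and C6). Each is 7.69% of the 26, beside 7.4% of all tested genes higher and 4.23% lower. In knockout against wild type, 6 of the 26 were higher both after CCl4 and in oil and 5 were lower in both (23.1% and 19.2%, beside 12.6% and 6.87% of all genes). The shares over all genes come from the wider filter here as well. C3ar1, C5ar1 and Cd93 were also higher after CCl4 in both genotypes, and C3ar1, Cd93 and Cd55 in knockout in both conditions, but these are the members that entered through some groups only. The CCl4 response differed between genotypes for 10 of the 30 members (10% more positive and 23.3% more negative, beside 14.3% and 19% of all genes). It was more negative in knockout for Cd59a, C1qc, C1ra, C1qb, C1s1, Masp1 and C2, and more positive for C5ar1, Clu and C6. For Cd59a, C1ra and C1s1 the wild-type change was not called. Those of Cd59a and C1s1 were called with the 4 libraries compared alone or with libraries weighted by genotype. For C1qb and C1qc both genotypes had positive changes that were smaller in knockout, and for C6 both genotypes fell, less so in knockout.

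Other genes of complement, a list of 34 with 30 in the table and 20 tested, moved in both directions. With CCl4, 8 rose and 7 fell in knockout (40% and 35%, beside 27.9% and 27.4% of all genes), and 3 rose and 1 fell in wild type (15% and 5%, beside 10.2% and 5.61%). The 4 called in wild type were Itgam, Itgb2, Itgax and Susd4, each below 1 FPKM in some libraries. Of the 15 at 1 FPKM or more in every library, 5 rose and 5 fell in knockout. In knockout 7 of the 20 were above and 7 below wild type after CCl4 (35% each, beside 29.6% and 27.5%), and 3 were above and 6 below it in oil (15% and 30%, beside 22.4% and 11%). Their median log2 change was -0.11 for CCl4 in knockout and 0.08 in wild type, and -0.24 after CCl4 and -0.22 in oil for knockout against wild type, beside the medians over all genes given above. In the interaction 6 were higher and 5 lower, with a median of -0.16 beside -0.09 over all genes.

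The integrin chains of complement receptors 3 and 4 were higher after CCl4. Itgam and Itgax passed the filter only through the CCl4 groups, so a rise was built into their entry. Itgam, the alpha chain of receptor 3, had 6.59 and 7.83 FPKM in knockout CCl4 and 0.25 and 0.3 FPKM in knockout oil libraries, against 3.95 and 3.90 FPKM in wild-type CCl4 and 0.17 and 0.3 FPKM in wild-type oil libraries. All CCl4 libraries stood above all oil libraries, with log2 changes of 2.68 ± 0.11 (limma adjusted p = 4.92e-06) in knockout and 2.00 ± 0.11 (limma adjusted p = 0.000126) in wild type. Itgb2, the beta chain of both, had changes of 1.83 ± 0.14 (limma adjusted p = 8.04e-05) in knockout and 2.58 ± 0.14 (limma adjusted p = 0.000126) in wild type. Itgax, the alpha chain of receptor 4, had changes of 1.34 ± 0.14 (limma adjusted p = 0.00031) in knockout and 1.03 ± 0.14 (limma adjusted p = 0.00438) in wild type. Vsig4, the C3b receptor of resident liver macrophages, had 9.31 and 6.55 FPKM in knockout CCl4 and 15.8 and 16.8 FPKM in knockout oil libraries, against 1.74 and 2.22 FPKM in wild-type CCl4 and 1.81 and 1.42 FPKM in wild-type oil libraries. It was higher in knockout (1.57 ± 0.17, limma adjusted p = 0.000406 after CCl4 and 2.73 ± 0.17, limma adjusted p = 0.000104 in oil). It fell by 0.97 with CCl4 in knockout (limma adjusted p = 0.00311), with an interaction of -1.16 ± 0.24 (limma adjusted p = 0.0124).

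Liver-made genes of the list held the largest falls. Cpn2, a subunit of the carboxypeptidase that inactivates C3a and C5a, had 14.7 and 16.2 FPKM in knockout CCl4 and 84.4 and 89.4 FPKM in knockout oil libraries, against 85.1 and 83.8 FPKM in wild-type CCl4 and 94.5 and 93.6 FPKM in wild-type oil libraries. C1rl, a C1r-like protease gene beside C1ra, had 18.1 and 20.3 FPKM in knockout CCl4 and 47.3 and 51.3 FPKM in knockout oil libraries, against 60.9 and 59.9 FPKM in wild-type CCl4 and 54.5 and 54.8 FPKM in wild-type oil libraries. In both, the knockout CCl4 libraries were far below the rest. The log2 change with CCl4 in knockout was -2.42 ± 0.07 (limma adjusted p = 1.7e-06) for Cpn2 and -1.32 ± 0.08 (limma adjusted p = 2.81e-05) for C1rl. The interaction was -2.27 ± 0.10 (limma adjusted p = 2.86e-05) for Cpn2 and -1.46 ± 0.12 (limma adjusted p = 0.000228) for C1rl. Apcs, the pentraxin serum amyloid P that binds C1q, had 977 and 909 FPKM in knockout CCl4 and 132 and 129 FPKM in knockout oil libraries, against 712 and 739 FPKM in wild-type CCl4 and 725 and 701 FPKM in wild-type oil libraries. It was low in knockout oil alone, with a log2 change of 2.85 ± 0.07 (limma adjusted p = 9.36e-07) with CCl4 in knockout and a difference of -2.44 ± 0.07 (limma adjusted p = 4.91e-06) for knockout against wild type in oil.

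Smaller changes completed the list. Crp, a pentraxin that can activate C1, rose with CCl4 in knockout (0.86 ± 0.08, limma adjusted p = 0.00015), with an interaction of 0.63 ± 0.11 (limma adjusted p = 0.00611). Knockout against wild type, Colec12, a scavenger receptor with a collectin domain, was higher after CCl4 (1.90 ± 0.38, limma adjusted p = 0.00546). C1qbp, named for its binding of C1q, was higher in oil (0.49 ± 0.09, limma adjusted p = 0.00857). Calr, the chaperone calreticulin, which can bind C1q, was lower after CCl4 (-0.85 ± 0.07, limma adjusted p = 0.000136) and in oil (-1.13 ± 0.07, limma adjusted p = 0.00011). Cpb2, a carboxypeptidase of plasma, was lower in oil (-0.85 ± 0.08, limma adjusted p = 0.000465). Susd4, a membrane inhibitor, had 0 and 0 FPKM in knockout CCl4 and 0.23 and 0.22 FPKM in knockout oil libraries, against 0.11 and 0.14 FPKM in wild-type CCl4 and 1.15 and 1.29 FPKM in wild-type oil libraries. It passed the filter only through wild-type oil, so its differences from that group (-0.86 for knockout in oil and -0.98 for CCl4 in wild type) were built into its entry. Cr1l, the gene of the rodent membrane inhibitor Crry, had an interaction of -0.54 ± 0.11 (limma adjusted p = 0.0126).

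The acute phase genes, plasma protein genes that inflammation induces in hepatocytes, were set beside the members. Of 16 such genes, 15 rose and 1 fell with CCl4 in knockout (93.8% and 6.25%, beside 27.9% and 27.4% of all genes). In wild type 2 rose and 2 fell (12.5% each, beside 10.2% and 5.61%). In knockout 5 were above and 10 below wild type after CCl4 (31.2% and 62.5%, beside 29.6% and 27.5%). In oil 2 were above and 14 below it (12.5% and 87.5%, beside 22.4% and 11%). Of the liver-made members, C3, Cfb and Clu rose with them in knockout. The liver-made members that fell there were C1ra, C1s1, C2, C4b, C6, C8b, C8g, Masp1, Masp2 and Serping1, and Cd59a also fell.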

How the data were processed

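RNA from hepatocytes of 4 groups was sequenced in 8 libraries, 2 per group. Per the file headers, the authors deposited 1 table of FPKM per gene and library, written to 2 decimals, and the build mm8 is named per the submitters' processing notes. Not given in the sources used here are the aligner, the counting tool, the annotation, the strand setting and the read numbers. FPKM depends on gene length and on the other genes of a library, and reads of near copies can have been shared. Depth is unknown, so the precision of a value is known only from the spread between 2 libraries.

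Of 16338 rows, 1 without a gene identifier was left out. A pseudocount of 1 was added to FPKM before log2. A gene was tested where 2 or more libraries reached 1 FPKM, as 10082 genes did and 6255 did not. A model of 4 group means over all 8 libraries was fitted with limma 3.58.1 in R 4.3.3 (trended prior, 4 residual and 2.61 prior degrees of freedom), with 5 two-sided contrasts and Benjamini-Hochberg adjustment over all tested genes at an FDR of 0.05. The fit was tested on simulated data. An exact permutation test of 2 against 2 libraries cannot give a p below 0.333 and was not used. The members, the lists of markers and of other complement genes and the tests were chosen with earlier results of these data known. All members were described, with full statistics for those called with the smallest adjusted p (up to 10 per contrast) and for those whose role group a sentence is about. Of the other complement genes, up to 4 per direction and contrast with the smallest adjusted p were named, except where an item is not reported here. Tables were made in Python 3.11.15 with pandas 2.3.3 and figures with matplotlib 3.10.9.

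The alternatives were a pseudocount of 0.1, no filter, quantile normalization, a replicate block, the 4 libraries compared alone, library weights by genotype and the omission of each library. A crossed replicate block, a replicate block in the knockout alone, a fit without replicate 2 of each knockout group, and the ratio of C1q to macrophage markers without Lyz2 or to Clec4f alone were added after seeing the data.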

Additional observations from a re-analysis of the deposited data

Results flagged for a closer look

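The response to CCl4 differed between the genotypes for 10 of the 30 tested members, by the test of the interaction in limma. Of the members 10% were called higher and 23.3% lower, beside 14.3% and 19% of all tested genes. The share called was thus near that over all genes. The values are the log2 change with CCl4 in knockout minus that in wild type. The difference was -1.48 for the membrane inhibitor Cd59a, -0.98 for C1ra and -0.85 for C1s1, and these 3 calls held in all 15 alternative fits. It was -1.10 for C1qc and -0.92 for C1qb, which rose in wild type. The summed FPKM of 12 macrophage markers beside them was 459.8 and 546 in knockout CCl4 and 210.5 and 269 in knockout oil, against 189 and 200.3 in wild-type CCl4 and 27.3 and 30.5 in wild-type oil, and its part in the difference was not tested. It was -0.57 for Masp1 and -0.56 for C2. It was positive for C5ar1 (0.72), Clu (0.52) and C6 (0.47). The 7 calls other than Cd59a, C1ra and C1s1 each ended in at least 1 alternative fit. What lies behind these differences was not tested.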

How the results depend on the processing

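Of the 80 member values called over the 5 tests, 44 were called in every alternative fit and 0 reversed; of the 70 not called, 40 gained a call in at least 1 alternative. Leaving out 1 library, or replicate 2 of both knockout groups, gave for CCl4 in wild type 4 to 14 members higher and 1 to 10 lower (9 and 2 with all libraries), for CCl4 in knockout 4 to 9 higher (7), for knockout in oil 2 to 10 lower (6), for knockout after CCl4 8 to 15 lower (14), and for the interaction 0 to 4 higher and 3 to 15 lower (3 and 7). With the 4 libraries compared alone, the counts were 14 higher and 10 lower for CCl4 in wild type and 4 higher and 7 lower for CCl4 in knockout. Library weights by genotype gave 14 higher and 8 lower for CCl4 in wild type. Quantile normalization gave 6 lower for CCl4 in wild type and 5 higher for the interaction, and moved the median interaction over all genes by 0.104 on the log2 scale. A pseudocount of 0.1 gave 1 higher for the interaction, and no filter gave 4 lower. The cause of these shifts was not tested. Without the filter Colec11 had a log2 difference of 0.77 for knockout in oil (limma adjusted p = 0.0324). C1q summed over Clec4f alone, in place of 12 macrophage markers, turned round the ratio of group means, to 2.34 for CCl4 over oil in knockout, 2.47 in wild type, 0.892 for knockout over wild type in oil and 0.846 after CCl4 (0.611, 0.407, 1.32 and 1.99 with all markers).

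Replicate numbers were not taken as pairs, since the labels give them no meaning. Deviations of same-numbered libraries correlated with r = 0.803 between the knockout groups, -0.242 between the CCl4 groups, 0.219 between the oil groups and -0.037 between the wild-type groups, over 10082 genes. A replicate block gave 9 higher and 2 lower for CCl4 in wild type, 7 and 11 for CCl4 in knockout, 11 and 6 in oil, 10 and 13 after CCl4 and 3 and 10 for the interaction. It ended the call of Cfi after CCl4 (limma adjusted p = 0.0523). A replicate block in the knockout alone gave 14 higher and 9 lower for CCl4 in wild type, 10 lower in oil and 17 lower for the interaction. A crossed replicate block gave 10 higher and 14 lower after CCl4.

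Read depth is unknown, and 2 libraries per group limit what can be called; fits that leave a group with 1 library assume that it varies like the others.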
